A study of Mus musculus with 34 samples.

Results

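The levels of 10 genes with some of the strongest differences between cultured mouse ependymal cells that lack Rfx2 and cells of their wild-type siblings are described here in all 34 libraries of the study, which also holds Rfx1 and Rfx3 knockouts. The 10 were taken from the 21647 genes of the count table because they ranked high by size or by p in the Rfx2 line. Pitpnm3, BC051019, Cdhr4, Ccdc33, Musk, Guca1b and Catsperd were lower in Rfx2 knockouts, and Nwd2, Prmt8 and Adamts3 were higher. Their levels in the Rfx2 line are therefore given as a description with no test, while values in the Rfx1 and Rfx3 libraries, which the rule did not use, were tested. The genes were nonetheless picked with earlier results of all 3 lines known.

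RNA was sequenced in bulk from lateral ventricular wall cells of E18.5 embryos, labelled C57BL/6, that had been grown to confluency and differentiated ex vivo by 4 days without serum. The Rfx1 line had 4 Rfx1-/- and 4 wild-type (+/+) libraries, the Rfx2 line 6 Rfx2-/- and 8 wild-type libraries, and the Rfx3 line 6 Rfx3-/- and 6 wild-type libraries. The titles of the samples also hold the letters OF1, and what these stand for is not explained. The labels do not say whether replicates came from separate embryos or cultures, so the p-values below measure only the spread between these libraries. In bulk RNA, fewer ependymal cells and less RNA per ependymal cell cannot be told apart.

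RFX proteins are transcription factors that bind a paired DNA motif, the X-box, and are known for switching on genes of the cilium. Ependymal cells line the brain ventricles and carry tufts of motile cilia, for which Foxj1 and Mcidas are master regulators. Rfx2 is best known for its part in multiciliated cells and in the making of sperm, and several of the 10 genes are known mainly from tissues other than ependyma. Musk encodes the receptor kinase of the neuromuscular junction. Guca1b encodes a calcium sensor that activates guanylate cyclase in photoreceptors, and Catsperd an auxiliary subunit of the calcium channel of the sperm tail. Pitpnm3 encodes a membrane-associated phosphatidylinositol transfer protein, Cdhr4 a cadherin-related protein and Ccdc33 a coiled-coil protein, while BC051019 is little characterised. Among the genes that were higher, Nwd2 encodes a protein with NACHT and WD repeat domains, Prmt8 an arginine methyltransferase known from neurons, and Adamts3 a protease of procollagen and of the lymphatic growth factor VEGF-C.

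Because RFX proteins act at promoters, the RefSeq promoter windows (GRCm38.p6, 250 bases before to 50 after the start) were searched for the X-box, and the 250 bases before the start are printed, on the strand of the gene, for the 4 members that fell furthest together in the Rfx2 and Rfx3 knockouts. Capitals mark GTTGCCA, a short motif that makes up one arm of the X-box, read here on the opposite strand as TGGCAAC. The windows are chr7:109723772-109724021 on the minus strand for BC051019, chr9:107992207-107992456 on the plus strand for Cdhr4, chr9:58102298-58102547 on the minus strand for Ccdc33 and chr4:58285712-58285961 on the plus strand for Musk.
BC051019: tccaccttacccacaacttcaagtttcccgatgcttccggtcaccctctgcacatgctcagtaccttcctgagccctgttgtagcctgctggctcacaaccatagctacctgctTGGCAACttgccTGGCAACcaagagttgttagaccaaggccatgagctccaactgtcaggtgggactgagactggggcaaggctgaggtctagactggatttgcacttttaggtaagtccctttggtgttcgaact
Cdhr4: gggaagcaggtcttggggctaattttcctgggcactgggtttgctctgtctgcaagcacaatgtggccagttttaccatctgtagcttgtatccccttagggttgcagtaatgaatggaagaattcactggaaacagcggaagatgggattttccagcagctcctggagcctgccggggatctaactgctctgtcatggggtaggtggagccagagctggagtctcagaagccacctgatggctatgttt
Ccdc33: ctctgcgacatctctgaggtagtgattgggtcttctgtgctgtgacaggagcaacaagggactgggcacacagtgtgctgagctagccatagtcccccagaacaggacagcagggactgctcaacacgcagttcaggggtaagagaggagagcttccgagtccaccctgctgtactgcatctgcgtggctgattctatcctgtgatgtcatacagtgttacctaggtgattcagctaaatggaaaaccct
Musk: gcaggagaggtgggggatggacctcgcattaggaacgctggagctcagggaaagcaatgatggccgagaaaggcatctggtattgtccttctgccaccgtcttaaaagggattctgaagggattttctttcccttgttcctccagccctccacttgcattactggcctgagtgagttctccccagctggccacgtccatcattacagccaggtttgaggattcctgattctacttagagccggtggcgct

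Only BC051019 held the short motif, in a pair of close copies that begin 136 and 124 bases before the start. At least 1 copy was present in 4.38% and at least 2 copies in 0.204% of 32851 RefSeq windows of this length, searched on both strands. Windows were found for 9 of the 10 members. The whole X-box, searched on both strands as GTTNCC, then any 2 bases, then GGNAAC, was in the windows of 0 of these 9 and in 0.451% of all windows. A match to these letters is a description of the sequence and not a binding site. The windows of Ccdc33 lie inside the gene as annotated here (chr9:58028677-58118823 on the minus strand). The bases before its outermost annotated start were therefore not searched.

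Levels are given as CPM, the reads of a gene scaled to a common library size with TMM factors. The targeted gene was lower in the knockouts of each line. Rfx2 ran from 43.3 to 55.3 CPM in Rfx2 knockouts, against 83.4 to 126 CPM in their wild types. Rfx3 ran from 25.2 to 51.8 CPM in Rfx3 knockouts, against 156 to 206 CPM in wild types, and Rfx1 from 19.9 to 30.2 CPM in Rfx1 knockouts, against 52.8 to 77.4 CPM in wild types. Rfx2 itself was lower in Rfx3 knockouts, 59.7 to 106 CPM against 111 to 123 CPM in wild types. The libraries held between 18.2 and 53.4 M counted reads. The labelled cell type was checked against 13 ependymal markers, of which at least 11 averaged 1 CPM or more in every group. Of 12 tested in Rfx2 knockouts 8 fell, where 18.4% of all genes did. In those knockouts 9 of 10 astrocyte and 10 of 10 microglia markers also averaged 1 CPM or more. Their sums were 6715 to 11900 CPM and 408 to 1354 CPM, against 7027 to 7998 CPM for the ependymal markers. S100b is in both the astrocyte and the ependymal list, so those sums are not separate. The check therefore does not show what share of the RNA came from ependymal cells. Foxj1 ran from 639 to 827 CPM in Rfx2 knockouts, against 813 to 1466 CPM in their wild types. Mcidas ran from 11.9 to 23.1 CPM in Rfx2 knockouts, against 25.8 to 86.6 CPM in their wild types. Both fell, with log2 differences of -0.62 (edgeR adjusted p = 0.000978) and -1.49 (edgeR adjusted p = 0.00048). The part of these regulators in the levels of the 10 genes was not tested. Some libraries stood apart within their group. Rfx3 knockout replicates 4 to 6 had 676 to 755 CPM of Foxj1 and 13.2 to 22.2 CPM of Mcidas, while replicates 1 to 3 had 1393 to 1473 CPM of Foxj1 and 66.7 to 93.2 CPM of Mcidas. Pdgfra, a marker of oligodendrocyte precursors, was above 20 CPM in 3 of 6 Rfx2 knockouts and 2 of 8 of their wild types, and in 4 of 6 Rfx3 knockouts and 1 of 6 of their wild types.

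BC051019 (ENSMUSG00000031022, chr7:109712181-109723850) had the largest fitted log2 difference of the well-counted members. It had 0.631, 0.672, 0.687, 0.559, 0.442 and 0.297 CPM in Rfx2 knockouts, against 4.75, 10.7, 15.4, 10.5, 2.45, 7.79, 6.54 and 7.24 CPM in wild types (replicates in order). The groups were far from touching, and wild types varied over a wider range than knockouts. Knockouts averaged 0.548 ± 0.153 CPM (SD, n = 6) and wild types 8.16 ± 3.99 CPM (SD, n = 8), a log2 difference of -3.90 (SE 0.40). Across all 10 members the Rfx2 knockout and wild-type libraries did not overlap, which held for 6.69% of 14305 tested genes with knockouts lower and 4.05% with knockouts higher. Nothing is read from that count, since this contrast chose the genes.

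**Figure D1:**
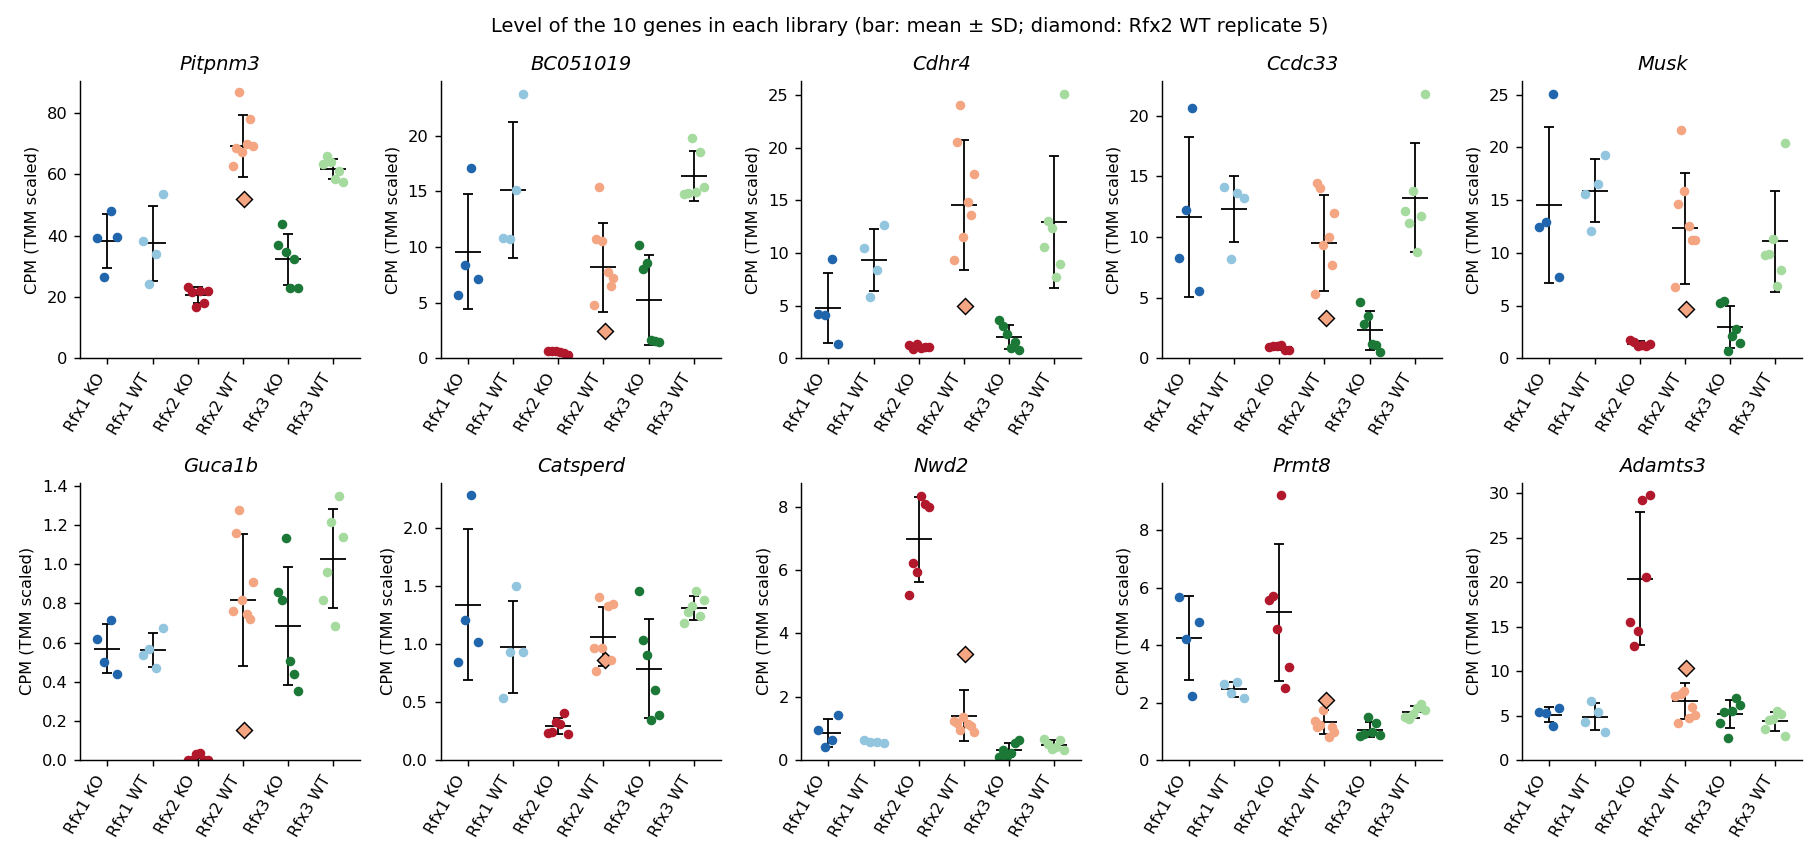
Level of each of the 10 genes in every library, in CPM with TMM scaling, with the knockout left of the wild type in each line. Points are libraries, horizontal bars are means and whiskers are SD, and the diamond is Rfx2 wild-type replicate 5. In the Rfx2 line the groups are separated for every gene, whereas in the Rfx1 line they overlap for every gene.

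Cdhr4, Ccdc33 and Musk had the same shape. Cdhr4 (ENSMUSG00000032595, chr9:107992497-107999684) had 1.23, 0.856, 1.31, 0.944, 1.10 and 1.04 CPM in Rfx2 knockouts, against 9.35, 20.6, 24.1, 11.6, 4.93, 14.9, 13.6 and 17.5 CPM in wild types, a log2 difference of -3.77 (SE 0.33). All 6 knockouts lay near 1 CPM, while the wild types spread from below 5 to above 24. Ccdc33 (ENSMUSG00000037716, chr9:58028677-58118823) had 0.963, 0.978, 1.05, 1.08, 0.663 and 0.667 CPM in knockouts, against 5.30, 14.4, 14.02, 9.35, 3.34, 10.02, 7.73 and 11.999 CPM in wild types (log2 difference -3.42, SE 0.33). Musk (ENSMUSG00000057280, chr4:58285960-58374303) had 1.73, 1.59, 1.20, 1.22, 1.18 and 1.37 CPM in knockouts, against 6.72, 14.6, 21.6, 15.9, 4.68, 12.5, 11.2 and 11.2 CPM in wild types (-3.18, SE 0.32). For each of the 3 genes the highest knockout stayed below the lowest wild type. Reads of Cdhr4 can be split with Gm20661 and Gm20662, which share 570 and 889 exonic bases with it on the same strand, so the counts of Cdhr4 are uncertain. Gm20662 is not analysed here. Gm20661 averaged 0.236 ± 0.124 CPM in Rfx2 knockouts and 2.15 ± 0.856 CPM in wild types (SD, n = 6 and 8). Genes on the opposite strand overlap Ccdc33 over 355 and 379 exonic bases, Cdhr4 over 152 and 20, and, among members described further on, Nwd2 over 1219 and Prmt8 over 233. Whether the counting used strand is not given in the sources used here, so these 4 genes are uncertain in that respect too.

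Pitpnm3 (ENSMUSG00000040543, chr11:72047528-72135778) was the most abundant member by CPM and changed least in fold among the lower genes, with the smallest p of all 14305 genes. It had 23.1, 21.5, 16.8, 21.9, 17.9 and 22.0 CPM in Rfx2 knockouts, against 62.8, 68.7, 86.9, 67.2, 52.1, 69.8, 77.9 and 69.2 CPM in wild types. Replicates were tight in both groups, and the knockout mean was 29.2% of the fitted wild-type level (log2 difference -1.78, SE 0.11). Catsperd (ENSMUSG00000040828, chr17:56628143-56664456) was close to the limit of counting, with 0.232, 0.244, 0.329, 0.315, 0.405 and 0.222 CPM in knockouts, against 0.970, 0.772, 1.41, 0.968, 0.859, 1.33, 0.859 and 1.34 CPM in wild types (-1.88, SE 0.21). These levels came from 52 reads in the knockouts together and 297 in the wild types.

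Guca1b (ENSMUSG00000023979, chr17:47385393-47392967) was nearly lost. It was at 0 in 4 of 6 Rfx2 knockouts and at 1 read each in replicates 3 and 4 (0.0299 and 0.0350 CPM), against 0.762, 1.16, 1.28, 0.817, 0.152, 0.744, 0.720 and 0.911 CPM in wild types. The knockouts held 2 reads in all and the wild types 222. Scaled by library size, the knockout level was 1.4% of the wild-type level, with an exact 95% counting interval of 0.168% to 5.11% that covers counting error only. The fitted log2 difference of -5.79 depends on the prior count. Guca1a, the neighbouring gene 1590 bases away and a second activator of the same cyclases, averaged 0.638 ± 0.0900 CPM in Rfx2 knockouts and 0.622 ± 0.234 CPM in wild types (SD, n = 6 and 8), and did not pass the test (log2 difference 0.03, SE 0.25, edgeR adjusted p = 0.943). On the other side of Guca1b, 3975 bases away, Mrps10 fell, with means of 20.5 CPM in Rfx2 knockouts and 24.9 CPM in wild types (log2 difference -0.30, SE 0.06, edgeR adjusted p = 0.00221).

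Guca1b and Catsperd lie on chromosome 17 with the targeted gene. Catsperd is 0.111 Mb from Rfx2 and Guca1b 9.38 Mb from it, so sequence near Rfx2 that came with the targeted allele cannot be told apart from loss of the factor for these genes. The genes flanking Catsperd did not pass the test in Rfx2 knockouts: Lonp1 differed by 0.04 (SE 0.03, edgeR adjusted p = 0.274) and Ranbp3 by 0.03 (SE 0.04, edgeR adjusted p = 0.537) on the log2 scale. The other 8 members lie on other chromosomes.

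Nwd2 (ENSMUSG00000090061, chr5:63649102-63810546) was the highest-ranked increase of the 3, with rank 6 among all increases by size. It had 5.21, 6.23, 5.95, 8.35, 8.10 and 8.01 CPM in Rfx2 knockouts, against 1.25, 1.16, 0.937, 1.36, 3.36, 1.14, 1.08 and 0.886 CPM in wild types (log2 difference 2.29, SE 0.26). A single wild-type library, replicate 5, stood above the other 7. Adamts3 (ENSMUSG00000043635, chr5:89677087-89883334) had 15.5, 12.8, 14.5, 29.2, 20.5 and 29.8 CPM in knockouts, against 7.21, 4.21, 7.37, 7.78, 10.4, 4.76, 5.98 and 5.11 CPM in wild types (1.61, SE 0.23). For both genes knockout replicates 1 to 3 were lower than replicates 4 to 6. The same replicates 1 to 3 had 64.5 to 100 CPM of Pdgfra, against 1.78 to 5.49 CPM in replicates 4 to 6, and the part of that difference in these levels was not tested.

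Prmt8 (ENSMUSG00000030350, chr6:127689011-127769472) had 5.58, 5.71, 4.57, 9.23, 2.50 and 3.23 CPM in Rfx2 knockouts, against 1.35, 1.16, 1.22, 1.72, 2.10, 0.797, 1.16 and 0.962 CPM in wild types (log2 difference 1.95, SE 0.27). The gap between the groups was narrow, with the lowest knockout at 2.50 and the highest wild type at 2.10 CPM. Tspan11, a tetraspanin gene 118116 bases from Prmt8, rose as well, with 1.93 to 4.31 CPM in Rfx2 knockouts, against 0.277 to 1.01 CPM in wild types (log2 difference 2.39, SE 0.26, edgeR adjusted p = 4.79e-05). The groups did not overlap for Tspan11. Cracr2a, on the other side of Prmt8, averaged 1.74 CPM in knockouts and 1.16 CPM in wild types (0.57, SE 0.15, edgeR adjusted p = 0.0110).

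By rank in the Rfx2 line, Guca1b had rank 1 by size of the log2 difference, BC051019 rank 7, Cdhr4 rank 10, Ccdc33 rank 14 and Musk rank 18. The genes between them in that order, such as Htr5b (-5.22), Gabrr1 (-5.15) and Tmem212 (-5.10), were not among the 10. Tmem212 is an ependymal marker. By p, Pitpnm3 came just ahead of Cacna1g (2.96), a calcium channel gene that is also not among the 10. The choice therefore had no sharp limit.

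Per kilobase of exon, the level in Rfx2 wild types was highest for Pitpnm3, 7.06 CPM per kb with a range of 5.31 to 8.86. Cdhr4 (4.72), BC051019 (3.94), Musk (3.26), Ccdc33 (1.78), Adamts3 (1.22), Prmt8 (0.481), Guca1b (0.335), Catsperd (0.296) and Nwd2 (0.134 CPM per kb) followed in that order. Ranges over libraries overlapped between neighbours in that order in 8 of 9 cases, with Adamts3 and Prmt8 the exception. BC051019 was highest in the wild types of the other lines, at 7.29 CPM per kb in the Rfx1 line and 7.92 in the Rfx3 line. Foxj1 reached 430 CPM per kb in the same Rfx2 wild types.

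The Rfx3 line asked whether the same genes depend on a related factor in libraries that the rule for choosing them did not use. Of the 10 genes, 6 fell and 0 rose in Rfx3 knockouts at an edgeR adjusted p below 0.05, with a background of 12.9% of 14340 tested genes lower and 10.6% higher. Pitpnm3, BC051019, Cdhr4, Ccdc33 and Musk fell, as did Prmt8, which was higher in Rfx2 knockouts. Guca1b, Catsperd, Nwd2 and Adamts3 did not pass. All 10 passed the filter on low counts. The median log2 difference was -1.67 over the 7 genes lower in Rfx2 knockouts and -0.60 over the 3 higher there, beside 0.02 over all genes tested.

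Cdhr4 had 3.62, 3.10, 2.27, 0.984, 1.56 and 0.821 CPM in Rfx3 knockouts, against 10.5, 13.04, 12.3, 7.76, 8.99 and 25.1 CPM in wild types. The groups did not overlap, and the log2 difference was -2.67 (SE 0.40, edgeR adjusted p = 0.00156). Gm20661, which shares its exon, moved in the same direction (-2.50, SE 0.45, edgeR adjusted p = 0.00346). Ccdc33 had 4.64, 2.84, 3.45, 1.20, 1.11 and 0.508 CPM in Rfx3 knockouts, against 12.1, 11.1, 13.8, 8.76, 11.8 and 21.8 CPM in wild types (-2.54, SE 0.44, edgeR adjusted p = 0.00297). Musk had 5.21, 5.47, 0.706, 2.10, 2.76 and 1.49 CPM in Rfx3 knockouts, against 9.76, 9.88, 11.3, 6.84, 8.38 and 20.4 CPM in wild types (-1.91, SE 0.43, edgeR adjusted p = 0.00948). Knockout libraries of these genes differed among themselves far more than in the Rfx2 line, with a coefficient of variation of 66.6% for Musk in Rfx3 knockouts and 16.6% in Rfx2 knockouts.

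BC051019 showed that spread most clearly. It had 10.2, 8.0045, 8.55, 1.62, 1.58 and 1.49 CPM in Rfx3 knockouts, against 14.8, 14.8, 19.8, 14.9, 18.6 and 15.4 CPM in wild types (log2 difference -1.67, SE 0.47, edgeR adjusted p = 0.0244). The knockouts formed an upper set, replicates 1 to 3, and a lower set, replicates 4 to 6. The lower set are the Rfx3 knockouts with low Foxj1 and Mcidas described above. The part of those regulators in the levels of BC051019 was not tested. Pitpnm3 had 36.8, 43.9, 34.6, 23.0, 32.3 and 22.8 CPM in Rfx3 knockouts, against 63.5, 65.9, 63.9, 58.4, 61.1 and 57.6 CPM in wild types, with no overlap (-0.95, SE 0.14, edgeR adjusted p = 0.00162). In all, 5 of the 7 lower genes had groups that did not overlap in the Rfx3 line, beside 9.39% of genes tested, and 0 of the 3 higher genes, beside 6.1% with knockouts higher. Without Rfx3 knockout replicates 4 to 6, an alternative added after the data were seen, Pitpnm3, BC051019, Cdhr4 and Ccdc33 kept their calls, but the log2 differences came to -0.87 for BC051019 and -1.85 for Ccdc33, in place of -1.67 and -2.54. In the same setting Musk (log2 difference -1.54, edgeR adjusted p = 0.103) and Prmt8 (-0.64, edgeR adjusted p = 0.0977) lost theirs. Pdgfra was under 20 CPM in only 2 Rfx3 knockouts, replicates 2 and 3, and in 5 of their wild types. This is a smaller set within the one just given, and not a separate check. In it the same 4 genes kept their calls, at -0.69 for Pitpnm3, -1.02 for BC051019, -1.99 for Cdhr4 and -1.89 for Ccdc33. The calls were lost for Musk (-1.61, edgeR adjusted p = 0.114) and Prmt8 (-0.49, edgeR adjusted p = 0.193). BC051019 lost its call without Rfx3 wild-type replicate 3 (-1.60, edgeR adjusted p = 0.0543).

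Guca1b differed between the Rfx2 and Rfx3 knockouts in size. It had 0.860, 0.818, 1.14, 0.505, 0.441 and 0.352 CPM in Rfx3 knockouts, against 0.816, 0.960, 1.22, 0.684, 1.35 and 1.14 CPM in wild types. The groups overlapped, and the log2 difference of -0.60 (SE 0.28) did not pass the test (edgeR adjusted p = 0.143). Reads were present in all 6 Rfx3 knockouts, from 9 to 33 a library, unlike the Rfx2 knockouts. Catsperd had 1.46, 1.03, 0.902, 0.346, 0.604 and 0.391 CPM in Rfx3 knockouts, against 1.18, 1.28, 1.33, 1.46, 1.24 and 1.38 CPM in wild types, and also did not pass (-0.74, SE 0.30, edgeR adjusted p = 0.0916). Its 3 lowest values came from replicates 4 to 6. Catsperd passed without knockout replicate 1 (-1.03, edgeR adjusted p = 0.0153) and Guca1b without knockout replicate 3 (-0.79, edgeR adjusted p = 0.0391).

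The genes that were higher in Rfx2 knockouts were not called higher in Rfx3 knockouts. Prmt8 had 0.833, 0.904, 1.49, 0.957, 1.30 and 0.860 CPM in Rfx3 knockouts, against 1.48, 1.44, 1.60, 1.81, 1.95 and 1.75 CPM in wild types, so it fell (log2 difference -0.67, SE 0.17, edgeR adjusted p = 0.0166). The groups overlapped through replicate 3 of the knockouts. Nwd2 was low in this line, with 0.104 to 0.626 CPM in Rfx3 knockouts, against 0.318 to 0.665 CPM in wild types (-0.60, SE 0.41, edgeR adjusted p = 0.313). Adamts3 had 2.47 to 6.92 CPM in Rfx3 knockouts, against 2.65 to 5.53 CPM in wild types (0.24, SE 0.24, edgeR adjusted p = 0.503). For Adamts3, 3 of the 6 knockouts lay above every wild type, and 1 lay below every wild type.

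Set side by side with no test of the difference, the knockout level as a share of the wild-type level was lower in the Rfx2 line than in the Rfx3 line for all 7 lower genes. BC051019 was at 6.71% in Rfx2 knockouts and 31.5% in Rfx3 knockouts, Cdhr4 at 7.33% and 15.7%, Ccdc33 at 9.37% and 17.2%, and Musk at 11.1% and 26.5%. Guca1b was furthest apart, at 1.81% by the fit in Rfx2 knockouts and 66.0% in Rfx3 knockouts. The choice of genes on the Rfx2 line favours this direction.

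**Figure D2:**
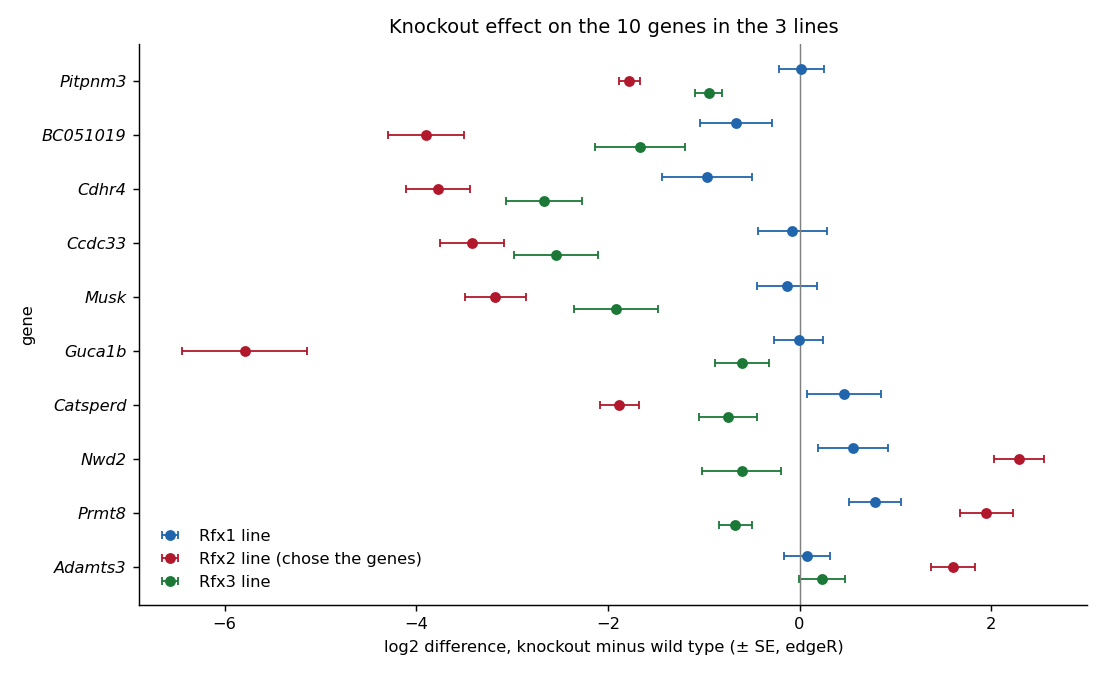
Log2 difference between knockout and wild type for the 10 genes in each line, with standard errors from edgeR. The red points of the Rfx2 line chose the genes and are a description, the green points of the Rfx3 line lie below 0 for 9 of the 10 genes, and the blue points of the Rfx1 line lie between -0.97 and 0.79.

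In Rfx1 knockouts the groups overlapped for all 10 genes, where 0.709% of genes lay apart with knockouts lower and 0.766% with knockouts higher. Of the 10 genes 0 passed, and edgeR called 0.00723% of 13830 tested genes there, a single gene. At an unadjusted p below 0.05, 281 genes (2.03%) were found, among them 1 of the 10, and DESeq2 also called 0 of the 10. That gene was Prmt8, with 5.69, 4.22, 2.24 and 4.81 CPM in Rfx1 knockouts, against 2.63, 2.33, 2.73 and 2.15 CPM in wild types (log2 difference 0.79, SE 0.27, edgeR adjusted p = 0.9998). In 3 of 4 knockouts it was above every wild type. Cdhr4 had 4.22, 4.12, 9.42 and 1.36 CPM in Rfx1 knockouts, against 10.5, 5.79, 8.36 and 12.6 CPM in wild types, and did not pass (-0.97, SE 0.47). BC051019 had 5.69, 8.34, 17.1 and 7.14 CPM in Rfx1 knockouts, against 10.8, 10.8, 15.1 and 23.7 CPM in wild types (-0.66, SE 0.37). With 4 libraries in each group the precision was low. The targeted gene Rfx1 itself did not pass there (log2 difference -1.40, SE 0.16, edgeR adjusted p = 0.0687), although its groups did not overlap. The values of the 10 genes in this line therefore do not show that the levels were alike.

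Musk, Ccdc33, Pitpnm3, Guca1b and Adamts3 had log2 differences between -0.13 and 0.08 in Rfx1 knockouts. Musk averaged 14.6 ± 7.41 CPM in Rfx1 knockouts and 15.9 ± 2.97 CPM in wild types (SD, n = 4 each). Guca1b averaged 0.569 ± 0.125 CPM in Rfx1 knockouts and 0.563 ± 0.0860 CPM in wild types (SD, n = 4 each). Catsperd (0.46, SE 0.39) and Nwd2 (0.56, SE 0.37) had wider errors.

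The difference between the Rfx3 and Rfx1 effects was tested directly over the 20 libraries of those lines. Ccdc33 (log2 difference of the effects -2.46, SE 0.62, edgeR adjusted p = 0.0409) and Prmt8 (-1.44, SE 0.31, edgeR adjusted p = 0.0224) passed, both with the lower effect in the Rfx3 line, while 2.87% of 14442 genes were called and 1.67% in that direction. Prmt8 averaged 1.06 ± 0.272 CPM in Rfx3 knockouts and 1.67 ± 0.200 CPM in wild types (SD, n = 6 each), and 4.24 ± 1.46 CPM in Rfx1 knockouts and 2.46 ± 0.268 CPM in wild types (SD, n = 4 each). Its knockout and wild-type libraries overlapped in both of these lines. The other 8 did not pass, among them Musk (-1.77, SE 0.60, edgeR adjusted p = 0.102), Cdhr4 (-1.69, SE 0.64, edgeR adjusted p = 0.136) and Pitpnm3 (-0.95, SE 0.28, edgeR adjusted p = 0.0647). The call of Ccdc33 held in 9 of 24 alternatives, with an edgeR or DESeq2 adjusted p of 0.00477 to 0.131. It was lost when any of 14 of the 20 libraries was left out. The call of Prmt8 held in 21 of 24, with an adjusted p of 0.000984 to 0.0798, and was lost without Rfx1 wild-type replicate 1 (edgeR adjusted p = 0.0519) or 2 (edgeR adjusted p = 0.0569).

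One Rfx2 wild-type library lay towards the knockouts for most of the 10 genes. Replicate 5 was the library nearest to the knockouts for 9 of the 10 genes, lowest of the 8 for 6 of the 7 lower genes and highest for all 3 of the higher genes. Its Guca1b was 0.152 CPM, with 0.720 to 1.28 CPM in the other 7, and its Musk 4.68 CPM, with 6.72 to 21.6 CPM in the others. The same library had the lowest Rfx2 of the wild types, 83.4 CPM, next to 84.0 CPM in replicate 1, and the second lowest Foxj1 (948 CPM) and Mcidas (32.0 CPM). Replicate 1, with 813 CPM of Foxj1, the lowest of the 8, was second lowest for Pitpnm3, BC051019, Cdhr4, Ccdc33 and Musk. The part of Rfx2, Foxj1 or cell makeup in the levels of these libraries was not tested.

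Over all 18 wild-type libraries, each line centred on its own mean, the log2 levels of BC051019, Cdhr4, Ccdc33 and Musk had Pearson correlations of 0.71 to 0.94 in their 6 pairs. Without Rfx2 wild-type replicate 5 the range was 0.50 to 0.90. All 21 pairs of the 7 lower genes ran from 0.06 to 0.94 with a median of 0.69, and without that library from -0.04 to 0.90 with a median of 0.52 and 19 of 21 above 0. The 3 higher genes correlated with each other at 0.50 to 0.64, which became 0.22 to 0.50 without that library. Of 21 pairs between a lower and a higher gene, 20 had a negative correlation, with a median of -0.53 and of -0.21 without that library. These points share libraries, depth and culture state, so the values are descriptions.

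The genes most like each member over the same 18 libraries included genes known from motile cilia. The search covered 12285 protein-coding genes above a lower limit on the mean wild-type level, with predicted genes left out. BC051019 was most like Ribc1 (r = 0.98, Spearman 0.98), a protein of the ciliary microtubule lumen, Tsnaxip1 (r = 0.98) and Col26a1 (r = 0.96). Musk was most like Fam166b (r = 0.97), Myo7a (r = 0.96), an unconventional myosin, and the centrin gene Cetn4 (r = 0.96). Fam166b also stood among the 3 most alike genes of Ccdc33 (r = 0.96) and Cdhr4 (r = 0.947). The gene most like Cdhr4 was Ivns1abp (r = 0.95). Pitpnm3 was most like Nme7 (r = 0.95), a nucleoside diphosphate kinase family gene found in cilia, and Guca1b most like Rundc3b (r = 0.93). Catsperd had weaker matches, led by Il4 (r = 0.81). Among the higher genes, Adamts3 was most like Tmtc1 (r = 0.93, Spearman 0.87), Prmt8 most like Magi1 (r = 0.90, Spearman 0.93) and Nwd2 most like Mboat7 (r = 0.83, Spearman 0.60). Nwd2 stood at 3.36 CPM in Rfx2 wild-type replicate 5, against 0.886 to 1.36 CPM in the other wild types of that line. The matches and the medians below are not given without that library. The median correlation with 50 motile cilium genes was 0.85 for BC051019, 0.84 for Musk, 0.80 for Ccdc33, 0.72 for Cdhr4, 0.63 for Guca1b, 0.56 for Pitpnm3 and 0.33 for Catsperd, against -0.52 for Nwd2, -0.39 for Adamts3 and -0.31 for Prmt8.

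Those 50 motile cilium genes, which encode dynein arms, radial spokes and other axonemal parts, fell in both lines: 48 of 50 passed lower in Rfx2 knockouts, where 18.4% of all genes did, and 47 of 50 in Rfx3 knockouts. Their median log2 difference was -0.89 in the Rfx2 line and -1.30 in the Rfx3 line, beside 7.40e-05 in the Rfx1 line. There 0 of 50 passed by edgeR, 2 had an unadjusted p below 0.05 and 1 passed by DESeq2. Beside those genes, the members with the largest decreases other than Guca1b were further reduced in Rfx2 knockouts. Taken as a mean per library relative to the wild types of the line, BC051019, Cdhr4, Ccdc33 and Musk were at -3.12 to -3.62 on the log2 scale in Rfx2 knockouts, while the motile cilium genes were at -0.75 to -1.13 in the same libraries. In Rfx3 knockouts replicates 1 and 2, where the motile cilium genes were at -0.69 and -0.75, the 4 genes were at -1.20 and -1.50. In Rfx3 knockout replicate 6, where the 4 genes reached -3.60, the motile cilium genes were at -2.51. The 4 genes were chosen from their values in the Rfx2 line. A larger fall there than that of the motile cilium genes was thus built into the choice. The difference between the lines was not tested.

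**Figure D3:**
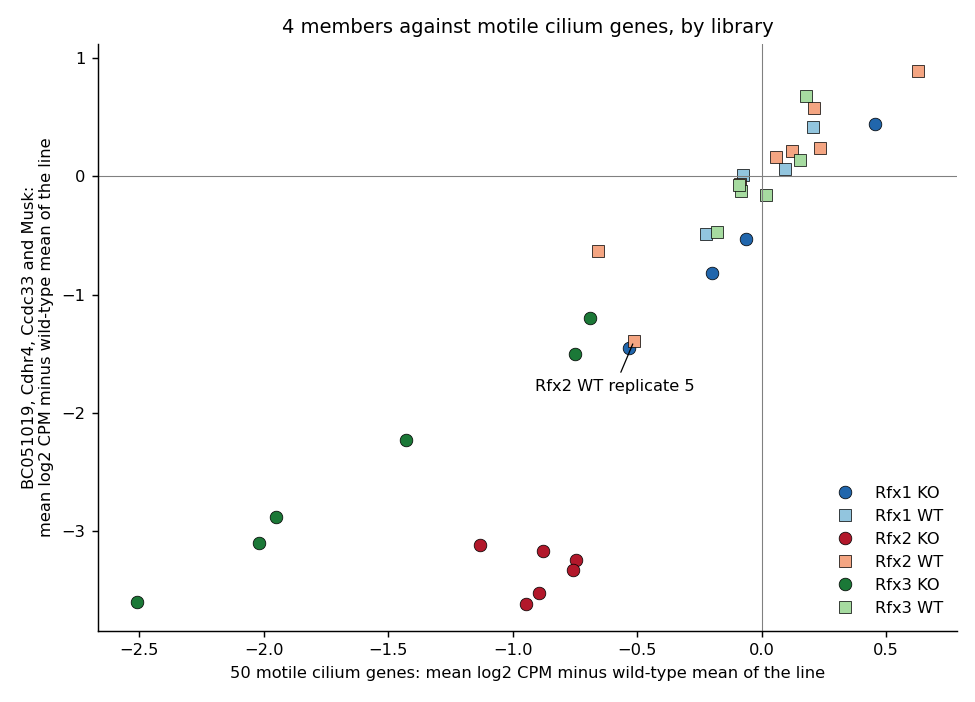
Mean log2 CPM of BC051019, Cdhr4, Ccdc33 and Musk (vertical axis) against the mean of 50 motile cilium genes (horizontal axis), each relative to the wild types of its line, with 1 point per library (circles knockout, squares wild type). The Rfx2 knockouts lie between -3.12 and -3.62 vertically at motile cilium levels of -0.75 to -1.13, whereas the Rfx3 knockouts at -2.88 to -3.60 vertically have motile cilium levels of -1.95 to -2.51. The genes of the vertical axis were chosen for large decreases in the Rfx2 line.

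Genes that work with the members were read from lists of partners and relatives, in which 15 of 76 tested genes rose and 11 fell in Rfx2 knockouts (19.7% and 14.5%, beside 13.9% and 18.4% of all genes). The shares were near those of all genes. In Rfx3 knockouts 10 of 75 rose and 11 fell (13.3% and 14.7%), and in Rfx1 knockouts 0 of 70 passed by edgeR or DESeq2, with 2 at an unadjusted p below 0.05.

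Among 11 tested guanylate cyclases and calcium-sensor relatives of Guca1b, 3 rose and 3 fell in Rfx2 knockouts. Gucy2e, which encodes the retinal guanylate cyclase that Guca1b is known to activate, fell to 0.367 to 0.769 CPM in Rfx2 knockouts, against 0.986 to 2.37 CPM in wild types (log2 difference -1.85, SE 0.23, edgeR adjusted p = 8.05e-05). It fell in Rfx3 knockouts too, with 0.313 to 0.990 CPM against 1.45 to 2.26 CPM in wild types (-1.40, SE 0.23, edgeR adjusted p = 0.00240). The groups did not overlap in either line. Ncs1, a neuronal calcium sensor, fell in both as well, by 0.45 in Rfx2 knockouts (SE 0.06, edgeR adjusted p = 0.000218) and by 0.34 in Rfx3 knockouts (SE 0.07, edgeR adjusted p = 0.00581).

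Among 9 tested cadherin-related genes, 2 rose and 3 fell in Rfx2 knockouts, and 0 of 8 rose and 3 fell in Rfx3 knockouts. Cdhr3, a relative of Cdhr4 known from airway multiciliated cells, averaged 4.67 ± 1.56 CPM in Rfx2 knockouts and 11.1 ± 5.38 CPM in wild types (SD, n = 6 and 8), with an edgeR log2 difference of -1.27 (SE 0.32). In Rfx3 knockouts it averaged 1.57 ± 0.962 CPM, against 14.9 ± 3.84 CPM in wild types (SD, n = 6 each), a log2 difference of -3.26 (SE 0.40). The larger difference was in the Rfx3 line for Cdhr3 and in the Rfx2 line for Cdhr4. Cdhr4 was chosen from its values in the Rfx2 line, which favours a larger difference there. The difference between the lines was not tested. Cdh23 and Dchs1 also fell in both, and Fat4 and Fat3 rose in Rfx2 knockouts.

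Of 14 tested genes around MuSK at the neuromuscular junction, 5 rose and 0 fell in Rfx2 knockouts, all by small amounts. Lrp4, the coreceptor of MuSK, rose by 0.41 (SE 0.08, edgeR adjusted p = 0.00226) and Agrn, which encodes its ligand agrin, by 0.23 (SE 0.05, edgeR adjusted p = 0.00463). Skeletal muscle markers summed to 3.24 to 5.84 CPM in Rfx2 knockouts and 3.77 to 9.18 CPM in wild types over 11 genes. Myod1, which defines the muscle lineage, was at 0 in all 8 Rfx2 wild types and in 5 of 6 Rfx2 knockouts, with 1 read in the remaining library. Photoreceptor markers summed to 4.13 to 4.71 CPM in Rfx2 knockouts and 4.12 to 6.28 CPM in wild types, with Crx at 0 in both groups. Spermatogenic markers summed to 3.88 to 5.19 CPM in knockouts and 4.12 to 6.65 CPM in wild types. Tnp1 was at 0 in the knockouts and had 3 reads in the wild types together. By edgeR 2 of 4 tested photoreceptor markers and 1 of 5 tested spermatogenic markers fell in Rfx2 knockouts, and 0 of 4 tested muscle markers passed. Some markers of each list were nonetheless present, with 2 and 3 of 11 muscle, 2 and 3 of 10 photoreceptor and 2 and 2 of 10 spermatogenic markers at a mean of 1 CPM or more in Rfx2 knockouts and wild types. The part of such markers in the levels of the 10 genes was not tested.

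By edgeR 0 of 6 tested CatSper channel genes passed in Rfx2 knockouts, with 1 at an unadjusted p below 0.05. In Rfx3 knockouts 2 of 6 fell, among them Catsperg1, another auxiliary subunit (-0.93, SE 0.20, edgeR adjusted p = 0.00826). Of 5 phosphatidylinositol transfer proteins, Pitpnm1 (-0.28, SE 0.06) and Pitpnm2 (-0.48, SE 0.13), the closest relatives of Pitpnm3, fell in Rfx2 knockouts and Pitpnb rose (0.11, SE 0.04), each by less than Pitpnm3. Pitpnm1 fell in Rfx3 knockouts as well (-0.80, SE 0.13, edgeR adjusted p = 0.00199).

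For the genes that were higher in Rfx2 knockouts, relatives moved in both directions. Nwd1, a relative of Nwd2, averaged well over 200 CPM in every group and fell in both lines, by 0.59 in Rfx2 knockouts and by 0.71 in Rfx3 knockouts. Among 12 tested genes of procollagen and VEGF-C processing, Adamts2 (0.75, SE 0.23) and Reln (0.95, SE 0.15) rose in Rfx2 knockouts and Adamts14 (-0.63, SE 0.18) fell. Adamts2 and Adamts14 encode procollagen proteases like Adamts3, and Reln is known as a target of Adamts3 cleavage. Among 12 arginine methyltransferases and their partners, 1 rose and 1 fell in Rfx2 knockouts.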

How the data were processed

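The table that the authors deposited holds raw counts of reads for each Ensembl gene and sample, without normalization. Per the submitters' processing notes, CASAVA 1.8.2, STAR 2.4 and featureCounts 1.4.6 were used with GRCm38. Their settings, their use of strand and the gene annotation they counted on were not given in the sources used here. Of 21647 identifiers, 21583 matched GENCODE M21, which gave symbols, coordinates and exon lengths. Promoter sequences came from RefSeq (GRCm38.p6).

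The members and gene lists were chosen with earlier results of these data known. Knockouts and wild types of a line were compared in a fit of that line with edgeR 4.0.16, run in R 4.3.3 (filterByExpr, minimum count 10 and total 15; TMM; two-sided quasi-likelihood F test; Benjamini-Hochberg adjustment over all genes kept; called at an adjusted p below 0.05). The Rfx3 and Rfx1 effects were compared by an interaction contrast over 20 libraries. Levels are CPM scaled over all 34 libraries, and correlations use log2 CPM with a prior count of 2. The scripts were tested on simulated data. Libraries held 18.2 to 53.4 M counts. Among 85 replicate pairs none agreed within counting error (chi-squared per degree of freedom 4.11 to 212).

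Genes named were the members, the RFX genes, Foxj1, Mcidas and Pdgfra, up to 3 genes per list and line with the smallest p, the 3 genes most like a member, and neighbours in rank or position; Gm20661, Pitpnm2, Agrn and other relatives outside this rule were named after their values were seen. Same-numbered knockout and wild-type libraries deviated together in all 6 pairs of the Rfx2 line (correlations 0.14 to 0.58), which by the rule used here treats the numbers as pairs there, but not in the Rfx1 line (-0.07 to 0.33) or the Rfx3 line (-0.33 to 0.20). The p-values and calls printed for single genes in the Rfx2 line nonetheless come from the fit without the block. They leave that pairing out and are to be read with this limit. Alternatives were DESeq2 1.42.0, limma-voom (limma 3.58.1), other scalings, no low-count filter, a term for Y-linked counts, a fit of all libraries, a replicate block and leaving out each library.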

Additional observations from a re-analysis of the deposited data

Results flagged for a closer look

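In 4 of 60 sets of a gene and a group, a library lay further from the rest than Dixon's test allows at 95%, where chance flags about 1 in 20. Cdhr4 was 25.1 CPM in Rfx3 wild-type replicate 6, with 7.76 to 13.04 CPM in the other 5. Musk was 20.4 CPM in the same library, with 6.84 to 11.3 CPM in the others. That library also had 102 CPM of Pdgfra, against 1.99 to 4.01 CPM in the other Rfx3 wild types. Ccdc33 was 8.23 CPM in Rfx1 wild-type replicate 2, with 13.2 to 14.1 CPM in the other 3. Nwd2 was 3.36 CPM in Rfx2 wild-type replicate 5, with 0.886 to 1.36 CPM in the other 7.

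The knockout effect differed between the Rfx3 and Rfx1 lines by the interaction test for Ccdc33 (log2 difference of the effects -2.457, edgeR adjusted p = 0.0409) and for Prmt8 (-1.435, edgeR adjusted p = 0.0224). Prmt8 fell in Rfx3 knockouts and was not called in Rfx1 knockouts, where its mean was 4.24 CPM, against 2.46 CPM in wild types, and the groups overlapped in both lines.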

How the results depend on the processing

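In the Rfx2 line the log2 differences of the 10 genes kept their direction in all 18 alternatives, from -4.27 to -3.70 for BC051019 and from 1.71 to 2.10 for Prmt8. Nothing is read from the kept direction, since this line chose the genes and their groups did not overlap there. With the replicate block, 12 partner genes fell and 13 rose in Rfx2 knockouts in place of 11 and 15. In the Rfx3 line, Pitpnm3, Cdhr4 and Ccdc33 kept their calls in all 21 alternatives, and the block ended no member's call there. BC051019 missed the threshold without Rfx3 wild-type replicate 3 (adjusted p = 0.0543). Musk (adjusted p = 0.114) and Prmt8 (adjusted p = 0.193) missed it among libraries with Pdgfra under 20 CPM, which left 2 knockouts and 5 wild types. Catsperd passed with limma-voom (0.0365), in the fit of all libraries (0.0343) and without knockout replicate 1 (0.0153), and Guca1b without knockout replicate 3 (0.0391). In place of 10 partner genes that rose and 11 that fell in Rfx3 knockouts, 6 rose with the replicate block, 1 rose and 5 fell without knockout replicates 4 to 6, and 0 rose and 5 fell among libraries with low Pdgfra. Leaving out 1 library gave 5 to 16 that rose.

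The number of members with a lower effect in the Rfx3 than in the Rfx1 line was 2, and it was 4 with DESeq2, 4 in the fit of all libraries, 0 with the replicate block and 0 to 4 when 1 library was left out. Pitpnm3 and Musk passed with DESeq2 and in the fit of all libraries. Members with the short promoter motif numbered 3 when its last base was dropped, a motif in 12.5% of all windows.

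Values that did not pass also changed sign. Adamts3 in the Rfx3 line became -0.10 without knockout replicates 4 to 6 and -0.27 with low Pdgfra. In the Rfx1 line, Pitpnm3 became -0.49 and Nwd2 -0.46 with a term for Y-linked counts. Leaving out 1 library there gave -0.14 to 0.25 for Pitpnm3, -0.50 to 0.16 for Ccdc33, -0.53 to 0.080 for Musk, -0.15 to 0.12 for Guca1b and -0.094 to 0.26 for Adamts3. The Rfx3 minus Rfx1 difference of Adamts3 ran from -0.0014 to 0.35. The causes were not tested. Depth limits Guca1b, Catsperd and Nwd2 most.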
